A study of Mus musculus with 4 samples.

Results

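IN10 is 1 of the 12 subtypes of inhibitory neurons that the authors' deposited annotation gives for nuclei of the mouse superior colliculus. Its members were taken as every nucleus with that subtype label, and they numbered 164 of 9724 nuclei in all, beside 3295 nuclei of the other inhibitory subtypes. The nuclei came from C57BL/6J mice of 4 ages, E19 (an embryonic stage) and the postnatal days P4, P8 and P21, with 1 library for each age. A library held tissue pooled from several animals, whose number and sex are not given in the sources used here. All animals carried the same genotype and no treatment is named in the labels. Ages therefore have no replicates, and stage, library and pool cannot be told apart: the values below are described with intervals that cover counting error only, and no p-value is given. The annotation was made on these same nuclei, so genes that set IN10 apart from its neighbours are a description of the subtype.

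The superior colliculus is a layered midbrain structure that receives input from the retina and other senses and directs orienting movements. Its inhibitory neurons release GABA, which is made by the glutamate decarboxylases encoded by Gad1 and Gad2 and loaded into vesicles by the transporter encoded by Slc32a1. Midbrain GABA neurons are set up by selector factors such as Gata2, Gata3 and Tal1, while EBF proteins are transcription factors known for their part in the differentiation and migration of many neurons.

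The E19, P4, P8 and P21 libraries held 35, 25, 68 and 36 IN10 nuclei, with 203198, 191623, 610464 and 452628 unique molecular identifiers (UMIs, 1 per captured RNA molecule). The median IN10 nucleus held 5798, 6692, 8500 and 12088 UMIs in that order, against 6091.5, 7712, 9357.5 and 14112.5 in the other 11 inhibitory subtypes. UMIs of the nuclei of 1 library were summed and divided by their total, which gives CPM (counts per 1000000), the level used throughout; values in series follow the order E19, P4, P8, P21. A gene with no UMI may still have been present at up to 14.8, 15.7, 4.91 and 6.63 CPM, the level of 3 counts. A cell barcode occurred in more than 1 library 9 times, in 18 nuclei, none of them IN10.

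IN10 nuclei carried the markers of GABA neurons at levels like those of other inhibitory neurons. Gad1 stood at 295, 235, 269 and 258 CPM in IN10, at 282, 263, 282 and 235 CPM in the other inhibitory subtypes and at 23.9, 17.0, 15.6 and 12.7 CPM in excitatory neurons. Gad2 stood at 571, 673, 657 and 358 CPM in IN10, against 556, 485, 432 and 367 CPM in the other inhibitory subtypes. The vesicular GABA transporter gene Slc32a1 (103, 104, 68.8 and 88.4 CPM) was also within 2-fold of the other inhibitory subtypes in every library. By these genes IN10 stood with the inhibitory and apart from the excitatory neurons at every age. A Gad2 UMI was seen in 94.3%, 96%, 98.5% and 91.7% of IN10 nuclei and in 11.8% to 21.7% of excitatory nuclei, whose median depth was 8051.5, 11738, 14158 and 19601 UMIs. After each nucleus was thinned to 3000 UMIs, the shares were 81.8%, 80%, 82.4% and 66.7% in IN10 and 5.68%, 4.49%, 4.51% and 4.41% in excitatory nuclei.

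Markers of excitatory neurons stayed at the level of other inhibitory neurons. The vesicular glutamate transporter genes Slc17a6, Slc17a7 and Slc17a8 summed to 49.2, 52.2, 18.0 and 19.9 CPM in IN10, to 49.3, 44.2, 27.7 and 12.4 CPM in the other inhibitory subtypes and to 289, 249, 184 and 179 CPM in excitatory neurons. At least 1 UMI of these genes was found in 33 of 164 IN10 nuclei (20.1%), and 2 or more in 7 (4.27%). The summed marker lists of astrocytes and oligodendrocytes also lay near the other inhibitory subtypes. The 9 oligodendrocyte genes summed to 64.0, 67.8, 62.2 and 395 CPM in IN10 and to 70.0, 73.4, 79.3 and 362 CPM in the other inhibitory subtypes. The vascular leptomeningeal list was higher in IN10 at P8, at 60.6 CPM (42.7 to 83.5) against 35.2 CPM, and the microglia list at P4, at 57.4 CPM (28.7 to 103) against 34.1 CPM.

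IN10 made up 3.92% of inhibitory neurons in the E19 library (95% Clopper-Pearson interval 2.74 to 5.41). The share was 3.39% in the P4 library (2.20 to 4.96), 6.25% in the P8 library (4.89 to 7.86) and 4.86% in the P21 library (3.43 to 6.67). The P8 share was the highest and the P4 share the lowest, a ratio of 1.84. The intervals of P4 and P8 overlapped only between 4.89% and 4.96%. Among the 12 inhibitory subtypes this ratio ranked as the 8th lowest, between 1.29 for IN6 and 6.23 for IN1. The counting intervals leave out differences in dissection and capture between pools, whose part in the share was not tested.

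**Figure D1:**
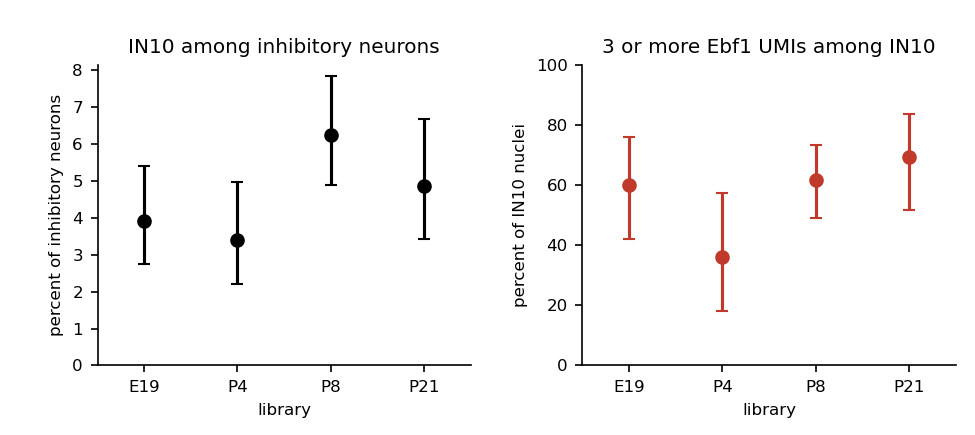
Left, IN10 nuclei as a percent of inhibitory neurons; right, nuclei with 3 or more Ebf1 UMIs as a percent of IN10 nuclei, for the libraries of E19, P4, P8 and P21 (points; bars are 95% Clopper-Pearson intervals, counting error only). The left share runs from 3.39% at P4 to 6.25% at P8, and the right share from 36% at P4 to 69.4% at P21.

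Of the 15 genes that led IN10, 8 encode regulators of transcription. Ebf3, which encodes an EBF transcription factor and lies at chr7:137193673-137314445 on the minus strand (GRCm38), stood at 1663, 1033, 894 and 733 CPM in IN10 and at 76.9, 30.5, 11.9 and 10.1 CPM in the other inhibitory subtypes. Every IN10 value lay above every value of the others, with log2 ratios of 4.35 to 5.73 (5 CPM added to both sides here and below). An Ebf3 UMI was found in 100%, 92%, 98.5% and 100% of IN10 nuclei and in 16.3%, 11.4%, 8.53% and 6.53% of the other inhibitory nuclei. Thinned to 3000 UMIs, the shares were 97.0%, 80%, 85.3% and 83.3% against 9.83%, 5.81%, 3.63% and 2.15%.

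Aff1, whose protein is a scaffold of transcription elongation complexes (chr5:103692374-103855322, plus strand), stood at 123, 235, 239 and 192 CPM in IN10, against 4.34, 7.42, 3.92 and 9.49 CPM in the other inhibitory subtypes. The pooled IN10 level was the higher in each library, although an Aff1 UMI was found in 11 of 35, 11 of 25, 37 of 68 and 26 of 36 IN10 nuclei. Ebf1, a second EBF factor (chr11:44617317-45008091, plus strand), stood at 1895, 767, 1094 and 996 CPM in IN10, against 121, 58.7, 25.2 and 19.4 CPM. Esrrb, which encodes an orphan nuclear receptor (chr12:86361117-86521628, plus strand), stood at 497, 308, 226 and 113 CPM, against 13.0, 2.26, 2.67 and 9.40 CPM. Both genes were highest at E19, and in both every IN10 library was above every library of the other subtypes.

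The 15 leading genes were ranked by the lowest log2 ratio over the 4 libraries among genes at 100 CPM or more in IN10 in each. The remaining regulators among them were Gli3, the forkhead factors Foxp4 and Foxp1, and the zinc finger factor Tshz1. Gli3, the repressor-forming factor of Hedgehog signalling, stood at 615, 412, 378 and 239 CPM, against at most 70.9 CPM in the pooled others. Among those it was highest in IN6, at 411, 295, 257 and 170 CPM. Foxp4 stood at 561, 423, 318 and 161 CPM in IN10, against 31.4, 21.5, 24.4 and 16.2 CPM. Tshz1 stood at 276, 261, 201 and 197 CPM, against 33.3, 34.4, 37.3 and 48.3 CPM.

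Genes of the cell surface and of sorting made up most of the rest. Erbb4, the neuregulin receptor long used as a mark of interneurons, stood at 2042, 2114, 2166 and 1714 CPM in IN10, against 389.9, 405, 204 and 228 CPM in the other inhibitory subtypes. Sorcs1, a sorting receptor of neurons, stood at 2643, 2948, 6094 and 4441 CPM, against 875, 782, 796 and 695 CPM. Erbb4 was level across the stages in IN10 as a whole, while Sorcs1 was highest at P8 and P21. Fras1, an extracellular matrix protein gene, stood at 576, 532, 685 and 886 CPM, against 94.8, 163, 204 and 175 CPM. Epha3, an ephrin receptor gene of axon guidance, stood at 886, 699, 573 and 347 CPM, against 175, 161, 181 and 121 CPM. IN10 was above the pooled others in all 4 libraries for each of these 4 genes. In the order of the 12 inhibitory subtypes, IN10 was first in every library for 11 of the 15 leading genes, and ranked lower in at least 1 library for Fras1, Sorcs1, Fam189a1 and Epha3. The rule's limit fell between the non-coding gene 9330158H04Rik in place 15, with a lowest log2 ratio of 1.42, and Trpc5 in place 16, with 1.30. That non-coding gene lies opposite to Chrm2, the gene of a muscarinic acetylcholine receptor, which stood at 1038, 892, 796 and 908 CPM in IN10 against 240.3, 263, 343 and 464 CPM. The sources used here do not say if strand entered the counting, so it is not known here whether UMIs of that pair were kept apart.

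**Figure D2:**
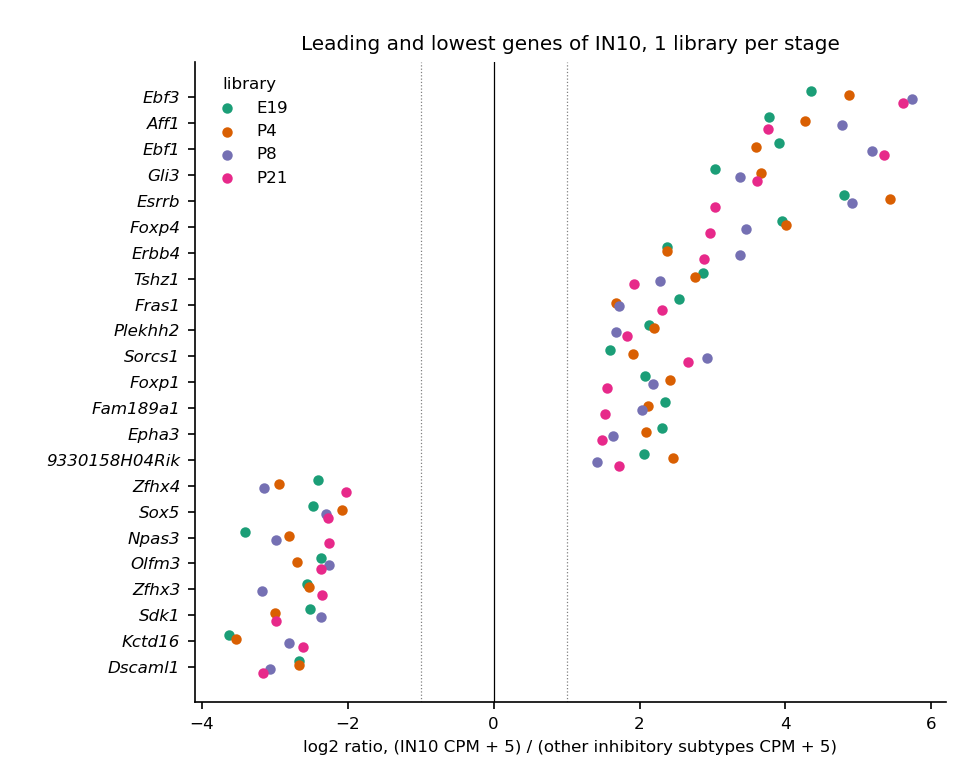
Log2 ratio of the level in IN10 to that in the other 11 inhibitory subtypes pooled, 5 CPM added to both (x axis), for the 15 leading and 8 lowest genes (rows), with 1 point per library and dotted lines at 2-fold. Ebf3 spans 4.35 to 5.73 over the libraries and 9330158H04Rik starts at 1.42, while all 8 lowest genes sit at -2.02 or below.

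The EBF family itself acts at a short palindrome, and Ebf3 and Aff1 ranked 1 and 2 by their lowest ratio over the libraries. Each also had a promoter that held the letters marked below. The 150 bases before that start site are shown for both, from the RefSeq promoter table of build GRCm38.p6. These 2 windows were thus chosen for holding the letters. The 300-base promoters they come from were 77% G or C in both genes. Capitals mark the letters CCCNNGGG, searched on both strands.
Ebf3, chr7:137314446-137314595, minus strand: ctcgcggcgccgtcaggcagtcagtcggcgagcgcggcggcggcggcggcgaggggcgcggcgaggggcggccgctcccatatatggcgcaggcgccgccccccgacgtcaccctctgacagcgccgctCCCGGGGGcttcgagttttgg
Aff1, chr5:103754012-103754161, plus strand: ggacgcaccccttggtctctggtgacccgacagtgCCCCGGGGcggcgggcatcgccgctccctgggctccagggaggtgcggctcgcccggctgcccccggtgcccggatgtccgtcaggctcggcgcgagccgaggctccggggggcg
The match began 21 bases before the start site in Ebf3 and 115 bases before the start site shown for Aff1. The table holds 2 promoters of Aff1, and the other one held no match, nor did the promoters of Ebf1 and Esrrb. Of the 15 leading genes 13 matched the table, with 18 promoters of 300 bases, and 3 of these promoters held the letters (Ebf3, Aff1 and Foxp1), while 13.7% of all 32851 promoters did. AAGGTCA, the letters of the estrogen-related receptors, was in 0 of the 18 and in 4.72% of all promoters. AGATAA, read by GATA factors, was in 1 of the 18 (Epha3) and in 11.2% of all. These matches describe letters in a window and are not binding sites.

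Set against all 25 neuron subtypes, excitatory ones included, IN10 had the highest mean level over the libraries for 13 of the 15 leading genes. Aff1 averaged 197 CPM in IN10 and 26.9 CPM in EN9, the next highest, a ratio of 7.32. Esrrb averaged 286 CPM in IN10 and 96.3 CPM in EN3. Gli3 stood closer to its neighbours, at an average of 411 CPM in IN10, 351 CPM in EN8 and 283 CPM in IN6. Its lead over EN8 held at E19 and P4 only, with EN8 the higher at P8 (472 against 378 CPM) and P21 (258 against 239 CPM). Ebf3 averaged 1081 CPM in IN10 and 892 CPM in EN9, so EBF expression as such was shared with excitatory neurons. Ebf1 went further in that direction: it averaged 1188 CPM in IN10 and was higher in 5 excitatory subtypes, up to 2126 CPM in EN5, while the next inhibitory subtype, IN4, averaged 108 CPM. Erbb4 was likewise higher in 2 excitatory subtypes. At least 1 UMI of the GABA genes together with 1 of Ebf1 or Ebf3 was found in 160 of 164 IN10 nuclei (97.6%). The same was found in 861 of 3295 other inhibitory nuclei (26.1%) and in 1177 of 4093 excitatory nuclei (28.8%). The median depths were 8171.5, 8853 and 11598 UMIs in that order. For Fras1 and Fam189a1 the lead over the next subtype was small, with ratios of 1.01 and 1.04.

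**Figure D3:**
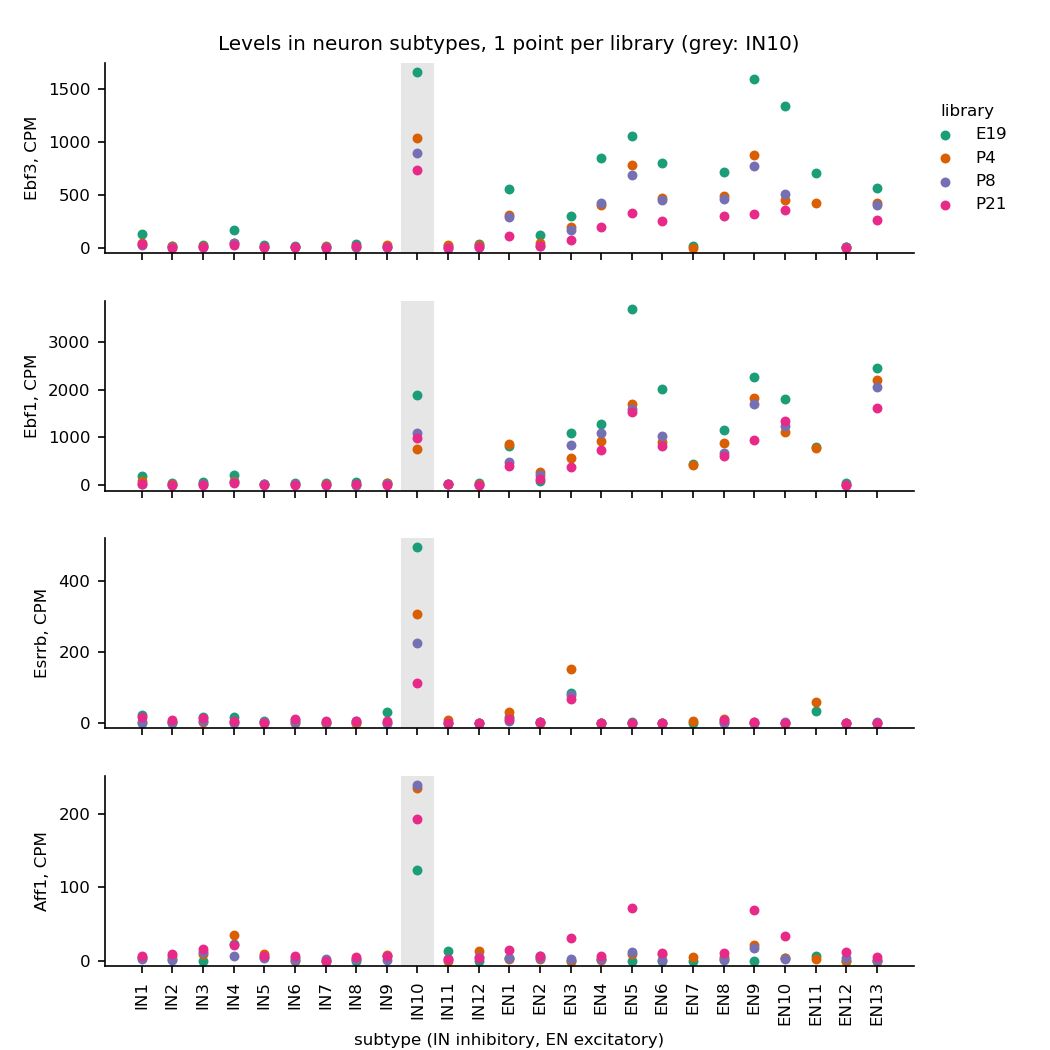
Level of Ebf3, Ebf1, Esrrb and Aff1 in CPM (y axes, linear) in the 12 inhibitory (IN) and 13 excitatory (EN) subtypes (x axis), with 1 point per library and IN10 shaded. Among inhibitory subtypes all 4 genes are highest in IN10 in every library, while EN5 exceeds its Ebf1 on average (2126 against 1188 CPM) and no excitatory subtype reaches its Aff1.

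The genes lowest in IN10 included zinc finger homeobox factors and adhesion proteins of synaptic lamination. Dscaml1, an adhesion molecule of the immunoglobulin family, stood at 34.4, 31.3, 21.3 and 8.84 CPM in IN10, against 247, 225, 215 and 119 CPM in the other inhibitory subtypes. Kctd16, an auxiliary subunit of GABA-B receptors, stood at 19.7, 26.1, 60.6 and 102 CPM, against 299.9, 356, 454 and 645 CPM. In each gene the highest IN10 library lay below the lowest library of the others. Zfhx3 (399, 297, 221 and 281 CPM against 2374, 1746, 2036 and 1460.4 CPM), Zfhx4, Sox5 and Npas3 were the transcription factors among the 8 lowest. The adhesion gene Sdk1 and the olfactomedin gene Olfm3 completed them. IN10 was the lowest of the 12 subtypes in every library for Kctd16 and Olfm3, but not for Dscaml1 or Zfhx3.

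Over all genes, 42 of 6229 were at least 2-fold higher in IN10 than in the pooled others in all 4 libraries (0.674%) and 81 were at least 2-fold lower (1.3%). These counts placed IN10 5th among the 12 inhibitory subtypes in both directions. In the list of other transcription factors 8 of 40 were higher and 9 of 40 lower. This list was drawn up with earlier results of these data known, so it is no independent support. The higher ones were Ebf1, Ebf3, Foxp1, Foxp4, Esrrb, its relative Esrrg, Tshz1 and Tshz2. The lower ones included Tfap2b, Meis1, Rorb, Zfhx3, Zfhx4, Sox5 and Npas3. The median log2 ratio over the 40 was -0.36, against -0.02 over all genes.

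The selector factors of GABA neurons gave 0 of 11 higher and 3 of 11 lower (Pax3, Pax7 and Lmo4). Pax7, a factor of the dorsal midbrain, stood at 19.7, 20.9, 14.7 and 6.63 CPM in IN10, against 129, 101, 117 and 57.8 CPM. Gata3 stood at 226, 250.5, 293 and 175 CPM, against 147, 124, 110.5 and 76.2 CPM, above the pooled others in each library but by less than 2-fold at E19. Lhx1, a LIM homeobox factor, stood between 41.7 CPM at P4 and 212 CPM at E19, against 20.2 to 44.8 CPM, with IN10 first of the 12 subtypes in every library and the P4 value resting on 8 UMIs.

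The lists of wiring genes are given beside the 0.674% higher and 1.3% lower over all genes, where lower calls also outnumber higher ones. Of 55 axon guidance genes 1 was higher (Epha3) and 4 were lower (Efna5, Epha4, Epha6 and Unc5c). The ligand gene Efna5 stood at 162, 172, 103 and 70.7 CPM in IN10, against 702, 485, 483 and 344 CPM, so that the receptor gene Epha3 was high and this ligand gene low in the same subtype. Of 20 cadherins 1 was higher, Cdh18 (3051, 2969, 4369 and 4757 CPM against 759, 1244, 1620.5 and 2077 CPM), and 4 were lower, with a median log2 ratio of -0.94. Of 63 synapse organisers 1 was higher (Mdga1, an inhibitor of neuroligin binding) and 5 were lower, Sdk1, Sdk2, Dscaml1, Grid1 and Ntng1.

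Ion channels and receptors set the excitability of a neuron. Of 31 potassium channel genes 2 were higher and 1 was lower: Kcnip4, a modulator of A-type channels, stood at 5536, 6607, 8133 and 14462 CPM against 2028, 3076, 3450.2 and 4389 CPM, Kcnmb2 was the other, and Kcnj6 was lower. None of 24 sodium, calcium and HCN channel genes and none of 20 GABA and glycine receptor genes passed 2-fold in all 4 libraries in either direction, and at the shares over all genes a list of that size would hold fewer than 1 call. Among 20 glutamate receptor genes Grm3 was lower and none was higher. The neuropeptide gene Sst was lower (34.4, 5.22, 13.1 and 4.42 CPM against 238, 61.7, 33.7 and 21.6 CPM), with 1 and 2 UMIs behind its P4 and P21 values. Rbfox3, the gene of the neuronal marker NeuN, stood at 98.4, 93.9, 136 and 144 CPM in IN10, against 369, 357, 391 and 406 CPM, the lowest of the 12 subtypes in each library.

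IN10 nuclei did not hold Ebf1 evenly. An Ebf1 UMI was found in 119 of 164 nuclei, while 163.6 would hold 1 if every nucleus of a library had that library's level and its own depth. Ebf3 did not show such a gap, with 161 nuclei against 163.6, nor did Gad1, with 139 against 141.7. At the level of Ebf3, 99.8% of nuclei would hold a UMI, so a difference in level short of near absence could not show in this count. Gaps were not particular to Ebf1: Esrrb was found in 81 nuclei against 137.7, Aff1 in 85 against 127 and Fras1 in 119 against 160.6. The nuclei were therefore described apart, a choice made after these values were seen and tested nowhere below. Nuclei with 3 or more Ebf1 UMIs, called Ebf1-rich here, numbered 97, nuclei with 0 or 1, called Ebf1-poor, numbered 63, and 4 nuclei with 2 UMIs were left between. Near the limit, 31 nuclei held 1 to 4 Ebf1 UMIs. The median Ebf1-poor nucleus held 9360 UMIs and the median Ebf1-rich nucleus 7139. By library these medians were 7095, 6292, 10868.5 and 13981 against 5636, 6692, 7541 and 11436, so Ebf1-rich nuclei were the deeper at P4 only. The part of depth in the split was not tested. After thinning to 3000 UMIs, 88 of 95 Ebf1-rich nuclei still held 2 or more Ebf1 UMIs.

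Both kinds of nuclei were present at every stage. Ebf1-rich nuclei numbered 21 of 35 at E19 (60%), 9 of 25 at P4 (36%, 18.0 to 57.5), 42 of 68 at P8 (61.8%, 49.2 to 73.3) and 25 of 36 at P21 (69.4%, 51.9 to 83.7). The P4 library had the lowest share, and its interval overlapped those of the other libraries. Both kinds carried the authors' cluster number of IN10, 22, in 96 of 97 Ebf1-rich and 62 of 63 Ebf1-poor nuclei. Both were inhibitory: Gad1 stood at 295, 283, 305 and 291 CPM in Ebf1-rich and at 315, 222, 221 and 193 CPM in Ebf1-poor nuclei. Ebf1 itself, which made the split, stood at 3515, 1982, 1925 and 1482 CPM and at 22.5, 44.3, 31.6 and 19.9 CPM. Ebf3 was also the higher in Ebf1-rich nuclei in each library, at 2168, 1444, 1054 and 824 CPM against 1047, 745, 628 and 552 CPM.

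Other leading genes followed the split in opposite directions. Sorcs1 stood at 4318, 6839, 9826 and 6071 CPM in Ebf1-rich and at 777, 674, 991 and 1164 CPM in Ebf1-poor nuclei, the latter within 2-fold of the other inhibitory subtypes in each library. Aff1 stood at 194, 581, 384 and 248 CPM in Ebf1-rich and at 11.3, 35.5, 27.6 and 79.8 CPM in Ebf1-poor nuclei. Esrrb was the reverse, at 258, 70.8, 47.0 and 62.9 CPM in Ebf1-rich and at 788, 452, 478 and 213 CPM in Ebf1-poor nuclei. Thus Sorcs1 and Aff1 were higher in Ebf1-rich and Esrrb in Ebf1-poor nuclei in every library. In Ebf1-rich nuclei Esrrb still lay above the other inhibitory subtypes, by log2 ratios of 2.24 to 3.87. Epha3 stood at 498, 156, 258 and 142 CPM in Ebf1-rich and at 1329, 1064, 1026 and 758 CPM in Ebf1-poor nuclei. Erbb4 stood at 1043, 1515, 1987 and 1479 CPM in Ebf1-rich and at 3345, 2643, 2447 and 2188 CPM in Ebf1-poor nuclei. Its log2 ratio of P21 to E19 was 0.50 in the former and -0.61 in the latter. At P4 the 5 Esrrb UMIs of Ebf1-rich nuclei came from 1 nucleus. The Aff1 values of Ebf1-poor nuclei rested on 1, 4, 7 and 12 UMIs, and that of E19 lay below the level of 3 counts, 33.8 CPM. Of the 15 leading genes, 9 were at least 2-fold above the other inhibitory subtypes in every library in both kinds of nuclei (Ebf3, Gli3, Esrrb, Foxp4, Erbb4, Tshz1, Fras1, Plekhh2 and Fam189a1). Aff1, Sorcs1 and, by the choice itself, Ebf1 passed 2-fold in all 4 libraries in Ebf1-rich but not in Ebf1-poor nuclei, and Foxp1, Epha3 and 9330158H04Rik in Ebf1-poor but not in Ebf1-rich nuclei. Aff1 in Ebf1-poor and Foxp1 in Ebf1-rich nuclei passed in 3 of the 4 libraries.

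Over all genes, 30 of 5639 were at least 2-fold higher in Ebf1-rich than in Ebf1-poor nuclei in all 4 libraries (0.532%) and 36 were at least 2-fold lower (0.638%). The 30 include Ebf1, which made the split. The minimum of 20 CPM on the higher side lay below the level of 3 counts in both groups at E19 (27.7 and 33.8 CPM) and P4 (42.5 and 26.6 CPM). Among the higher was Gata3, at 323, 509.8, 455 and 222 CPM against 124, 79.8, 82.9 and 79.8 CPM, so the raised Gata3 of IN10 belonged to Ebf1-rich nuclei while Ebf1-poor nuclei were within 2-fold of the other inhibitory subtypes. Grik3, a kainate receptor subunit, stood at 185, 382, 232 and 258 CPM against 0, 8.87, 31.6 and 6.65 CPM. In Ebf1-poor nuclei 3 counts would be 33.8, 26.6, 11.8 and 19.9 CPM, above their Grik3 values at E19, P4 and P21. The semaphorin receptor gene Nrp2, the neuregulin gene Nrg1, the adhesion gene Kirrel3, the synapse organiser Lrrc4c and the auxiliary kainate receptor gene Neto1 were also higher. So were Rbfox3 and Kcnj6, which were low in IN10 as a whole, so their low levels were not even over the 2 kinds of nuclei. Foxp2, a forkhead factor, was lower, at 203, 184, 88.0 and 86.0 CPM against 766, 701, 837 and 678 CPM, with 1 nucleus behind the P4 value of Ebf1-rich nuclei. Zfhx3, the ephrin receptor Epha5, the metabotropic glutamate receptor Grm8, the guidance gene Sema5a and the splicing factor Rbfox1 were lower as well. These genes were named after their values were seen.

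The split was also read in libraries other than the one that chose its genes. In P8, which holds the most IN10 nuclei, the 10 genes highest and the 10 lowest in Ebf1-rich nuclei by log2 ratio were taken, Ebf1 left out. The 10 high genes summed to 7012, 16256 and 23445 CPM in the Ebf1-rich nuclei of E19, P4 and P21 and to 1261, 1632 and 3937 CPM in the Ebf1-poor nuclei, ratios of 5.56, 9.96 and 5.96. They were Cadps2, Tnr, Lgr5, Egflam, Zfp804b, Aff1, Sorcs1, Htr2c, Lrrc4c and Nrp2. The 10 low genes summed to 3340, 2874 and 1505 CPM in Ebf1-rich and to 11150, 8371 and 6044 CPM in Ebf1-poor nuclei. Of these 20 genes, 9 and 9 at E19, 10 and 10 at P4, and 10 and 9 at P21 had the direction they had at P8. Over all genes at 100 CPM or more, 1338 of 2587 at E19, 1186 of 2468 at P4 and 1000 of 2291 at P21 were higher in Ebf1-rich nuclei by any amount. Past 2-fold in their direction were 9 and 9 of the 20 genes at E19, 9 and 9 at P4 and 10 and 8 at P21. The 2-fold counts over all genes were 294 higher and 317 lower at E19, 245 and 349 at P4 and 138 and 189 at P21. In the single nuclei of those 3 libraries, 46 of 55 Ebf1-rich nuclei held more UMIs of the 10 high than of the 10 low genes, and 34 of 39 Ebf1-poor nuclei the reverse. The E19, P4 and P21 values had already been looked at when P8 was chosen, so this is a description of 4 libraries and not an independent check.

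**Figure D4:**
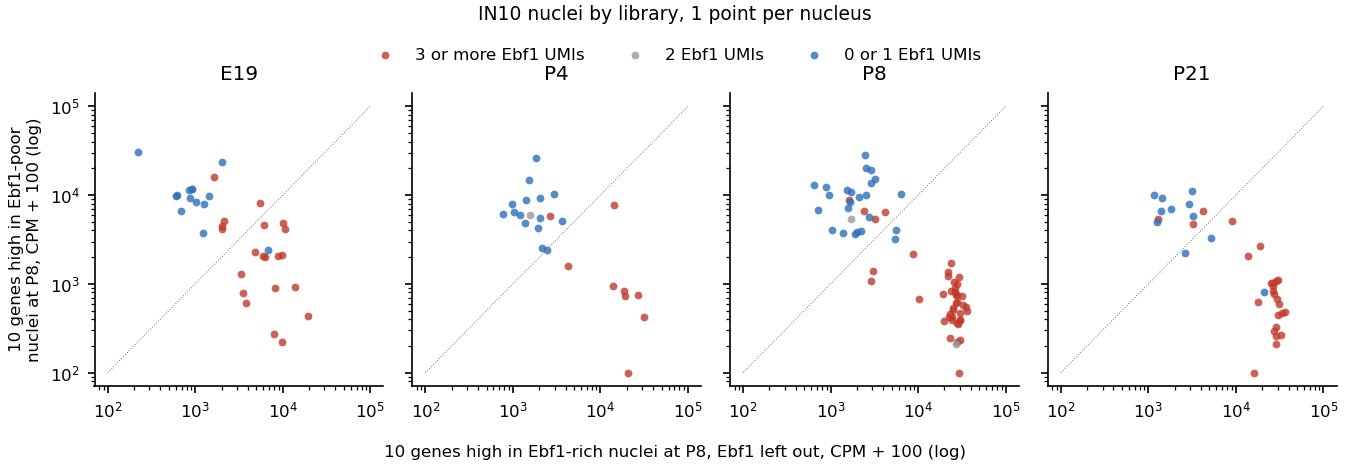
Each point is 1 IN10 nucleus, with the summed level of the 10 genes highest in Ebf1-rich nuclei at P8 (x axis) and of the 10 lowest there (y axis), both in CPM plus 100 on log axes, for each library; red, grey and blue mark 3 or more, 2, and 0 or 1 Ebf1 UMIs and the dotted line marks equal sums. Outside P8, 46 of 55 red points lie below the line and 34 of 39 blue points above it.

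The deposited reference labels treated the 2 kinds of nuclei alike in 1 set and less so in the other. In the second set, label 25 was given to 152 of 164 IN10 nuclei (92.7%, 87.6 to 96.2), to 2 of 3295 other inhibitory nuclei and to 0 excitatory nuclei. It went to 92 of 97 Ebf1-rich (94.8%) and 56 of 63 Ebf1-poor nuclei (88.9%). In the first set, the label ISC5 went to 62 of 97 Ebf1-rich (63.9%, 53.5 to 73.4) and 26 of 63 Ebf1-poor nuclei (41.3%, 29.0 to 54.4), intervals that overlap at their ends, and other nuclei received ESC1 or ESC2. Over IN10 as a whole ISC5 went to 54.3% of nuclei, against 57.0% of the other inhibitory subtypes.

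Across stages, several receptor genes stood higher in each later library of IN10 and ended well above the other inhibitory subtypes. Htr2c, a serotonin receptor gene on chromosome X (146962513 to 147197277, plus strand), stood at 59.1, 444, 717 and 2627 CPM in IN10, against 132, 196, 109.9 and 428 CPM. Its level at P21 was 44.5 times that at E19, where 12 UMIs were counted. Lgr5, an R-spondin receptor gene best known from intestinal stem cells, stood at 4.92, 125, 280.1 and 515 CPM, against 18.6, 42.0, 50.8 and 70.3 CPM. Both genes were lowest at E19 and above the pooled others from P4 on. The E19 value of Lgr5 was 1 UMI, with a counting interval that included the level of the others.

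Rxfp1, the relaxin receptor gene (chr3:79641611-79737880, minus strand), was close to absent from IN10 at first and high at P21. It stood at 0, 0, 8.19 and 201 CPM in IN10 (162 to 247 at P21) and at no more than 2.10 CPM in the other inhibitory subtypes pooled, although 1 of those subtypes reached 25.1 CPM at P21. The P21 level was at least 13.6-fold higher than E19, where 3 counts would be 14.8 CPM. At P21 a Rxfp1 UMI was found in 16 of 36 IN10 nuclei (44.4%), in 0.852% of other inhibitory nuclei and in 4.11% of excitatory nuclei, and after thinning in 27.8%, 0.143% and 1.32%. A2m, a protease inhibitor gene, stood at 0, 5.22, 44.2 and 135 CPM in IN10, against 2.95, 3.39, 5.35 and 3.50 CPM, with a UMI in 14 of 36 nuclei at P21.

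These late genes were found mainly in Ebf1-rich nuclei. At P21 a Rxfp1 UMI was found in 16 of 25 Ebf1-rich and 0 of 11 Ebf1-poor nuclei, or 301 CPM (242 to 370) against 0 (up to 19.9 CPM by 3 counts), at least 15.1-fold higher. A2m was found in 14 of 25 and 0 of 11 nuclei and Lgr5 in 23 of 25 and 4 of 11. The Lgr5 level of Ebf1-rich nuclei was 9.23, 297, 467 and 754 CPM, against 0, 26.6, 31.6 and 33.2 CPM in Ebf1-poor nuclei. The latter rested on 0, 3, 8 and 5 UMIs, with counting intervals that included the level of the other inhibitory subtypes in each library. Htr2c differed by degree, at 73.8, 1034, 1159 and 3579.9 CPM in Ebf1-rich and 33.8, 106, 118 and 712 CPM in Ebf1-poor nuclei. Lgr5 and Htr2c were among the genes chosen for the split at P8, so their P8 values are fixed by that choice. Since the share of Ebf1-rich nuclei was lowest at P4 and highest at P21, a stage value of IN10 as a whole moves with that share too, and the 2 parts were not separated except by the values given for each kind of nucleus.

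**Figure D5:**
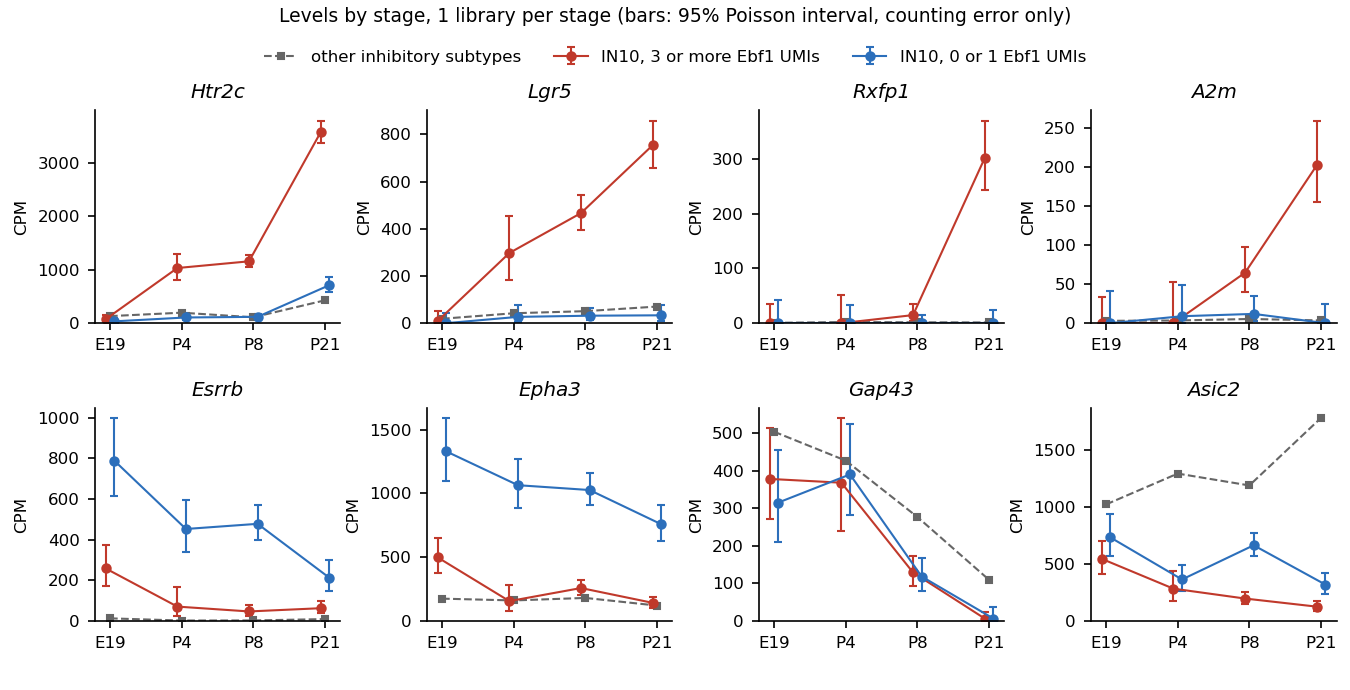
Level in CPM (y axes from 0, linear, scaled per gene) at E19, P4, P8 and P21 of 8 genes in Ebf1-rich nuclei (red), Ebf1-poor nuclei (blue) and the other 11 inhibitory subtypes pooled (grey, dashed); bars are 95% Poisson intervals, counting error only. Rxfp1 reaches 301 CPM at P21 in Ebf1-rich nuclei and 0 in Ebf1-poor nuclei, while Gap43 ends at 6.62 and 6.65 CPM.

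Other genes differed between stages in both kinds of nuclei. Gap43, a growth cone protein gene, stood at 344, 371, 129 and 6.63 CPM in IN10, against 504, 427, 277 and 109.7 CPM in the other inhibitory subtypes, and IN10 was the lowest of the 12 subtypes in every library. Its P21 value rested on 3 UMIs (1.37 to 19.4 CPM), and Ebf1-rich and Ebf1-poor nuclei gave 6.62 and 6.65 CPM. Asic2, an acid-sensing channel gene, stood at 645, 318, 406 and 190.0 CPM in IN10, while the other inhibitory subtypes stood at 1021, 1291, 1187 and 1779 CPM. The log2 ratio of P21 to E19 was -1.74 in IN10 and 0.80 in the others, and it was -2.07 in Ebf1-rich and -1.18 in Ebf1-poor nuclei. Cdh4, a cadherin gene, stood at 629.9, 214, 185 and 64.1 CPM, against 778, 737, 841 and 566 CPM. At E19 Cdh4 was at 941 CPM in Ebf1-rich and 270.3 CPM in Ebf1-poor nuclei, so its high first value belonged to the former.

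Genes of immature and mature neurons differed between E19 and P21 in IN10 as in inhibitory neurons at large. In IN10, 995 of 7644 genes were at least 2-fold higher at P21 than at E19 (13%) and 1358 were at least 2-fold lower (17.8%), in sums small enough that counting error adds to both. The other inhibitory subtypes, with larger sums, gave 455 of 7680 higher (5.92%) and 811 lower (10.6%). Of the genes called in IN10, 30.8% of the higher and 40.4% of the lower were also called in the others. Of 21 immature neuron genes 17 were lower at P21 and 1 higher (Meg3), with a median log2 ratio of -2.73 in IN10 and -2.41 in the others. Tubb2b, a tubulin of growing neurons, stood at 1112, 506, 203 and 13.3 CPM in IN10 and at 872, 435, 188 and 4.61 CPM in the others. Of 28 mature neuron genes 18 were higher at P21 and 2 lower (Nefl and Map2), with medians of 1.31 and 0.73. Rasgrf1, an exchange factor of Ras signalling, was higher at P21 in both sets, at 0, 57.4, 45.9 and 407 CPM in IN10 and at 30.7, 71.0, 91.6 and 524 CPM in the others.

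Among NMDA receptor subunit genes, the balance at P21 differed from that of the earlier libraries. Grin2b, the subunit gene of young neurons, stood at 645, 595, 547 and 221 CPM in IN10, the lowest of the 12 subtypes in every library. The log2 ratio of Grin2a to Grin2b UMIs was -1.10, -0.93, -0.54 and 1.70 (1.38 to 2.03 at P21) in IN10, against -1.74, -0.89, -0.65 and 0.19 in the others. The counting intervals of the 2 sets overlapped at P4 and P8 and lay apart at E19 and P21, with IN10 the higher. The chloride extruder gene Slc12a5 exceeded the importer gene Slc12a2 by log2 ratios of 1.58, 1.77, 1.56 and 2.45 in IN10 and 1.54, 1.83, 1.98 and 1.99 in the others, within the counting interval of IN10 in each library.

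By overall expression, IN10 was most like IN1. Over genes at 100 CPM or more in any compared subtype, the correlation of log2 levels with IN1 was 0.855 on average (0.836 to 0.865 over the libraries), followed by IN5 with 0.835 and IN2 with 0.834. The nearest excitatory subtype was EN1, with 0.811. The 11 inhibitory values share their libraries and rest on different numbers of nuclei, so they are given as a description across genes. The best match of IN10 was the second lowest among the 12 subtypes. Ebf1-rich nuclei correlated with Ebf1-poor nuclei at 0.801 and with IN1 at 0.780, and Ebf1-poor nuclei with IN1 at 0.806, in sums of fewer nuclei than those of the whole subtypes.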

How the data were processed

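The authors' deposited matrix held raw UMI counts of 31053 genes in 9724 nuclei. Per the labels, they used 10x Genomics 3′ v3 chemistry and CellRanger 3.0.2 (Cell Ranger in the submitters' processing notes) with a pre-mRNA mm10 reference, so intronic reads were counted. Stage, class and subtype came from the deposited table of nuclei, and the sources used here do not give its filters or doublet treatment. The UMI total recomputed per nucleus equalled the deposited one in 9724 nuclei. The percent of mitochondrial UMIs is as deposited by the authors and was used as a depth and quality check: the IN10 medians were 0.832, 1.00, 0.385 and 0.205, against 0.714, 0.817, 0.339 and 0.187 in the other inhibitory subtypes. A further 4 per-nucleus columns were not used.

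UMIs were summed per library and subtype and scaled to 1000000. Log2 ratios had 5 CPM added. Counts of genes required a 2-fold ratio in all 4 libraries and 20 CPM on the higher side. Intervals are exact at 95% (Poisson for levels, Clopper-Pearson for shares); UMIs were thinned to 3000 with seed 1. Named genes were the 15 with the highest lowest ratio and the 8 with the lowest highest ratio, the 3 largest differences per stage step, the 5 largest over the span, the 3 most unlike the others, and the extreme genes of each list. Members and lists were chosen with earlier results of these data known, and the split by Ebf1 after its values were seen. Of the 23 leading and lowest genes, 4 overlap no annotated gene in GENCODE (31011 of 31053 identifiers found), 9 overlap one on the same strand and 15 one on the opposite strand. Some genes of the lists are not reported here. The scripts were tested on simulated data. Python 3.11.15, NumPy 2.4.6, SciPy 1.17.1, pandas 2.3.3 and matplotlib 3.10.9 were used.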

Additional observations from a re-analysis of the deposited data

Results flagged for a closer look

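Asic2, the acid-sensing channel gene, differed in direction between IN10 and the other inhibitory subtypes: its log2 ratio of P21 to E19 in IN10 minus that in the others was -2.53, from 645 and 190.0 CPM in IN10 and 1021 and 1779 CPM in the others. It was picked out because the IN10 libraries went one way and those of the other subtypes the opposite way between E19 and P21. With 1 library per stage the difference was not tested. The other subtypes were pooled here, and their mean Asic2 levels over the libraries ran from 118 CPM in IN7 to 2135 CPM in IN2. IN10 averaged 390 CPM, so a low level was not particular to it.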

How the results depend on the processing

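With all neurons as the denominator the IN10 share was 1.57%, 1.29%, 3.48% and 2.53%, again lowest at P4 and highest at P8. The correlation with IN1 was 0.877 with a minimum of 50 CPM and 0.830 by Spearman's measure, and IN1 stayed the best match in both. With 20 CPM added, 52 genes were lower in IN10, and 605 and 793 were higher and lower at P21 than at E19. Those stage counts were 1512 and 2164 after thinning and 1796 and 2226 at a 1.5-fold threshold. Without 1 library in turn, 5 to 8 of the 8 lowest genes kept their place, the 5 without P21. The following used alternatives chosen after seeing the data. In Ebf1-rich nuclei alone 9 of the 15 leading and 5 of the 8 lowest genes kept their place, and in Ebf1-poor nuclei alone 3 of the 8 lowest did and 1497 genes were higher at P21 than at E19. The direction of Ebf1 against the others turned (-0.56 in Ebf1-poor nuclei, which that choice of nuclei fixes). In Ebf1-poor nuclei the E19 to P21 log2 ratios of Tcf7l2 (0.20), Vwc2 (1.66), Efna5 (0.045), Cacna2d3 (0.84) and Gabrg3 (-0.43) turned as well. Thinning was planned and is not among those later choices. Under it the E19 to P21 log2 ratio of Oprm1 turned (-0.083). The causes were not tested. No paired analysis was possible because each stage is 1 library. Depth limits IN10 most at E19 and P4, where 3 counts are 14.8 and 15.7 CPM.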
